A study of Homo sapiens with 6 samples.

Results

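The NRF2 pathway core genes are 9 genes of the oxidative stress response: NFE2L2, KEAP1, NQO1, GCLM, GCLC, HMOX1, TXNRD1, SRXN1 and TXN. They were found as the array probe sets annotated to exactly 1 of these symbols, which gave 19 of the 54613 probe sets tested, and 9 of the 19775 genes with a probe set of their own. HMOX1, KEAP1 and SRXN1 had 1 probe set each and the other 6 genes had several, and 1 further probe set, annotated to both NFE2L2 and CSNK2A1, was left out. All cells were SUM159, an established human breast cancer line, transduced with the lentiviral vector pLVX-puro, either empty (3 arrays) or carrying human SCGB3A1, which encodes a small secretoglobin that cells secrete (3 arrays). In both groups, puromycin selection (2 µg/ml, 7 days) preceded 5 days of suspension culture on ultra-low attachment plastic, where the cells form floating oncospheres, and 100 ng of total RNA per sample was labelled for an Affymetrix 3′ expression array. The arrays are labelled biological replicates, but nothing states that they were separate transductions, so each p-value reflects only how these samples vary, which may be partly technical. The comparison asked how oncospheres respond to SCGB3A1, which the study examined as a factor of the vascular niche in lung metastases.

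NRF2, the product of NFE2L2, is a transcription factor that pairs with small MAF proteins on the antioxidant response element of its target genes. KEAP1 holds NRF2 in the cytoplasm and presents it to a CUL3 ubiquitin ligase for degradation, and oxidants or electrophiles that modify KEAP1 let NRF2 accumulate. Because this control acts on the protein, the transcripts of NRF2 targets are the usual array readout of the pathway. These targets include enzymes that reduce quinones, degrade haem, make glutathione and keep thioredoxin reduced, and some cancers carry a constantly active form of the pathway.

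The antioxidant response element is shown here because it is the regulatory sequence that the target genes have in common. Its core, TGACNNNGC, was searched on both strands of RefSeq promoter windows (GRCh38.p14) that run from 250 bases before to 50 bases after a gene's start. Of the 9 genes, 8 had windows (11 in all), HMOX1 being the one that did not. The core was found in 4 of the 11 windows, of 3 genes, with 6 matches in all, and 13.3% of all 35116 promoter windows held it. Sequence further from the start was not searched, so a window without a match does not show that a gene lacks the element. The 5 matches before a start are printed on the gene's own strand with the core in capitals, which reads TGAC first where it lies forward and ends in GTCA where it lies reversed, and the distance is counted from the start of the window's transcript.

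GCLM, chr1:93909446-93909474, minus strand, 34 bases before the start: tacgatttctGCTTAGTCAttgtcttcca
KEAP1, chr19:10502784-10502812, minus strand, 31 bases before the start: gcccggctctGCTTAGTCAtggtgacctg
KEAP1, chr19:10502807-10502835, minus strand, 54 bases before the start: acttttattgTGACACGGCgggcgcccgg
TXNRD1, chr12:104215670-104215698, plus strand, 99 bases before the start: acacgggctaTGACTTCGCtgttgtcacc
TXNRD1, chr12:104286920-104286948, plus strand, 102 bases before the start: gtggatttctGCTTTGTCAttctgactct

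The GCLM match and the first of the TXNRD1 matches lie outside the annotated genes, which span chr1:93885199-93909430 and chr12:104215779-104350307. Both KEAP1 matches and the second TXNRD1 match lie inside the annotated spans, upstream of an internal start. A match is a description of letters in a short window, and none of these sites was measured on the arrays.

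The normalization gave every array nearly the same distribution of values. Empty replicate 2 stood slightly apart, with correlations of 0.989 to 0.993 to the other arrays over all probe sets. It was the lowest array for 24.0% of all probe sets and the highest for 20.9%. The other arrays were lowest for 14.0% to 17.7% and highest for 14.8% to 18.5%. Transcripts typical of a claudin-low line such as SUM159 (VIM, CD44, ZEB1, FN1, AXL and EGFR) read 9.42 to 14.4 on the log2 scale. Those of luminal breast cells read 6.21 to 8.26, and those of blood and endothelial cells 5.91 to 8.39. No detection call was given, so a low reading cannot be told from background. Summed over the 6 claudin-low genes, the log2 values were 72.0 to 72.6 in empty arrays and 71.4 to 71.5 in arrays labelled SCGB3A1. By their brightest probe sets all 6 genes were lower in arrays labelled SCGB3A1, and none passed adjusted p 0.05. ZEB1 and EGFR passed an unadjusted p of 0.05 (limma), where 3.10% of all probe sets passed it lower. The groups did not overlap for these 2 genes, and for 11.2% of all probe sets. The part of this shift in the results below was not tested. The probe set for SCGB3A1 read 6.91 in empty arrays and 6.74 in those labelled SCGB3A1, so it did not check the labels. The study's methods state that expression was checked by qPCR after selection, values not used here. Directions are given for the arrays as labelled.

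No NRF2 core gene passed the test between the groups. Of their 19 probe sets, 0 passed adjusted p 0.05 (limma, Benjamini-Hochberg over all probe sets), where 0.0183% of all probe sets did, and 0 passed an unadjusted p of 0.05, where 6.20% did. The criteria of the study's SCGB3A1 signature (p under 0.05, adjusted p under 0.25 and a log2 difference larger than 0.5) were also met by 0 of 19, against 0.0311% of all. The log2 differences, taken here as arrays labelled SCGB3A1 minus empty arrays, ran from -0.19 to 0.18, with 9 positive and 10 negative. Their median was -0.0073, beside 0.0026 over all probe sets, and the median size was 0.0657, beside 0.0628. All 19 95% intervals lay within a log2 difference of 0.5 in either direction, and 18 lay within 0.4. The 9 genes, each read by its brightest probe set, had intervals between -0.26 and 0.36. Levels of different core genes are not ranked here, because each reading depends on its own probes. The marker readings above carry the same limit. In such bulk samples, fewer cells with a transcript and less of it per cell cannot be told apart.

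**Figure D1:**
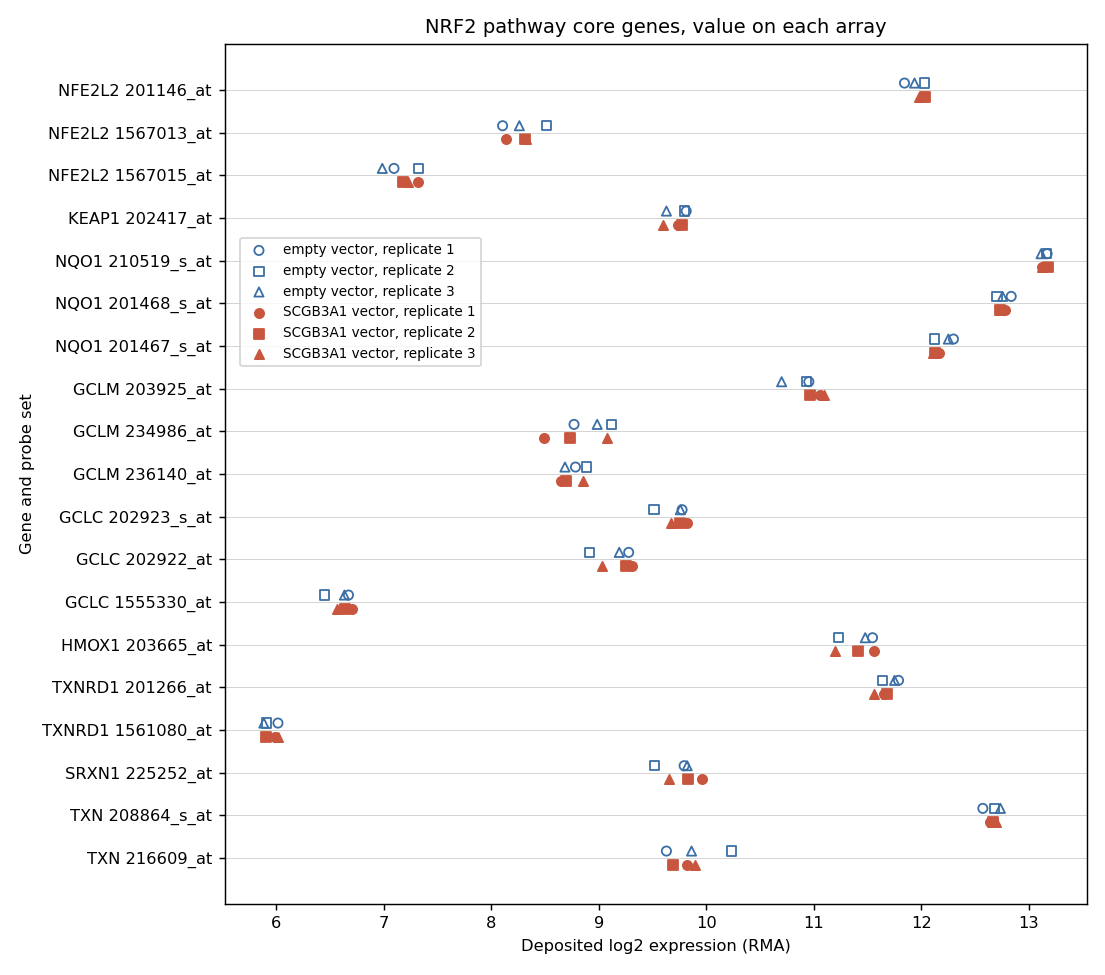
Deposited log2 expression (RMA; horizontal axis) of the 19 probe sets of the NRF2 core genes (vertical axis) on each of the 6 arrays, open blue symbols for empty vector and filled red symbols for SCGB3A1 vector, with the symbol shape giving the replicate number. The 2 groups overlap in 18 of 19 probe sets, GCLM 203925_at being the exception.

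Among the regulators, NFE2L2, which encodes NRF2, lies at chr2:177230303-177264727. Its brightest probe set, called the main one for each gene here, 201146_at, read 11.84, 12.03 and 11.94 in empty replicates 1 to 3 and 12.02, 12.03 and 11.98 in the arrays labelled SCGB3A1. The labelled arrays lay close together, and empty replicate 2 lay among them. The difference was 0.08 ± 0.07 (SE; 95% interval -0.09 to 0.24; limma, adjusted p = 0.90), or a fold of 1.05. The other NFE2L2 probe sets read -0.04 (1567013_at) and 0.11 (1567015_at) as log2 differences. In 1567013_at empty replicate 2 was the highest array at 8.51, and the rest ran from 8.10 to 8.32.

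KEAP1, the inhibitor that presents NRF2 for degradation (chr19:10486125-10503356), read 9.81, 9.80 and 9.63 in empty and 9.74, 9.78 and 9.60 in labelled arrays. In each group the third replicate was the lowest, and the groups overlapped almost fully. The difference was -0.04 ± 0.08 (SE; 95% interval -0.22 to 0.14; limma, adjusted p = 0.96).

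NQO1, a quinone reductase that is among the most used markers of NRF2 activity (chr16:69709401-69726560), had the steadiest main probe set across arrays. Its main probe set, 210519_s_at, read 13.17, 13.17 and 13.12 in empty and 13.13, 13.18 and 13.12 in labelled arrays. The range over the 6 arrays was 0.07, the narrowest of the 19 probe sets, and the groups overlapped. Its fold was 0.995, with a 95% interval of 0.897 to 1.10. The other NQO1 probe sets differed by -0.02 (201468_s_at) and -0.09 (201467_s_at), with wider ranges of 0.13 and 0.19 over the 6 arrays. In 201467_s_at the labelled arrays read 12.16, 12.12 and 12.11, and 2 of the 3 empty arrays lay above them at 12.30 and 12.25 while empty replicate 2 lay at 12.12. All 3 probe sets carry the suffix that the manufacturer gives to sets whose probes match more than 1 transcript.

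HMOX1, which opens the haem ring to biliverdin, iron and carbon monoxide (chr22:35381096-35394207), read 11.55, 11.23 and 11.48 in empty and 11.56, 11.41 and 11.19 in labelled arrays. Each group held 1 low array, empty replicate 2 and SCGB3A1 replicate 3, and otherwise the groups lay on top of each other. The difference was -0.03 ± 0.11 (SE; 95% interval -0.26 to 0.20; limma, adjusted p = 0.98).

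Glutathione synthesis was represented by both subunits of glutamate-cysteine ligase, the rate-limiting enzyme. GCLM, the modifier subunit, whose promoter match is printed above, was the member whose main probe set came closest to a difference. Probe set 203925_at read 10.95, 10.93 and 10.70 in empty and 11.06, 10.96 and 11.09 in labelled arrays. The lowest labelled array lay just above the highest empty array, so the groups did not overlap, as in 11.2% of all probe sets. Empty replicate 3 was the lowest array, and without it the difference was 0.10. The difference was 0.18 ± 0.08 (SE; 95% interval -0.01 to 0.36; limma, adjusted p = 0.82), a fold of 1.13. A second GCLM probe set, 234986_at, gave the opposite sign, reading 8.77, 9.12 and 8.98 in empty and 8.49, 8.73 and 9.08 in labelled arrays. Here SCGB3A1 replicate 3 lay among the empty arrays and the groups overlapped (-0.19 ± 0.13 SE; limma, adjusted p = 0.86). The third, 236140_at, differed by -0.05.

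GCLC, the catalytic subunit (chr6:53497341-53545101), gave 3 probe sets with small positive differences of 0.07, 0.07 and 0.05. Its main one, 202923_s_at, read 9.77, 9.51 and 9.76 in empty and 9.82, 9.75 and 9.67 in labelled arrays. Empty replicate 2 was the lowest array and SCGB3A1 replicate 3 the next lowest, and the rest ran from 9.75 to 9.82. The 95% interval ran from -0.12 to 0.25. Without empty replicate 2 the difference was -0.02. The GCLC probe set with the difference of 0.05, 1555330_at, was dim. It read 6.44 to 6.70, below the median level of all probe sets (6.91).

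**Figure D2:**
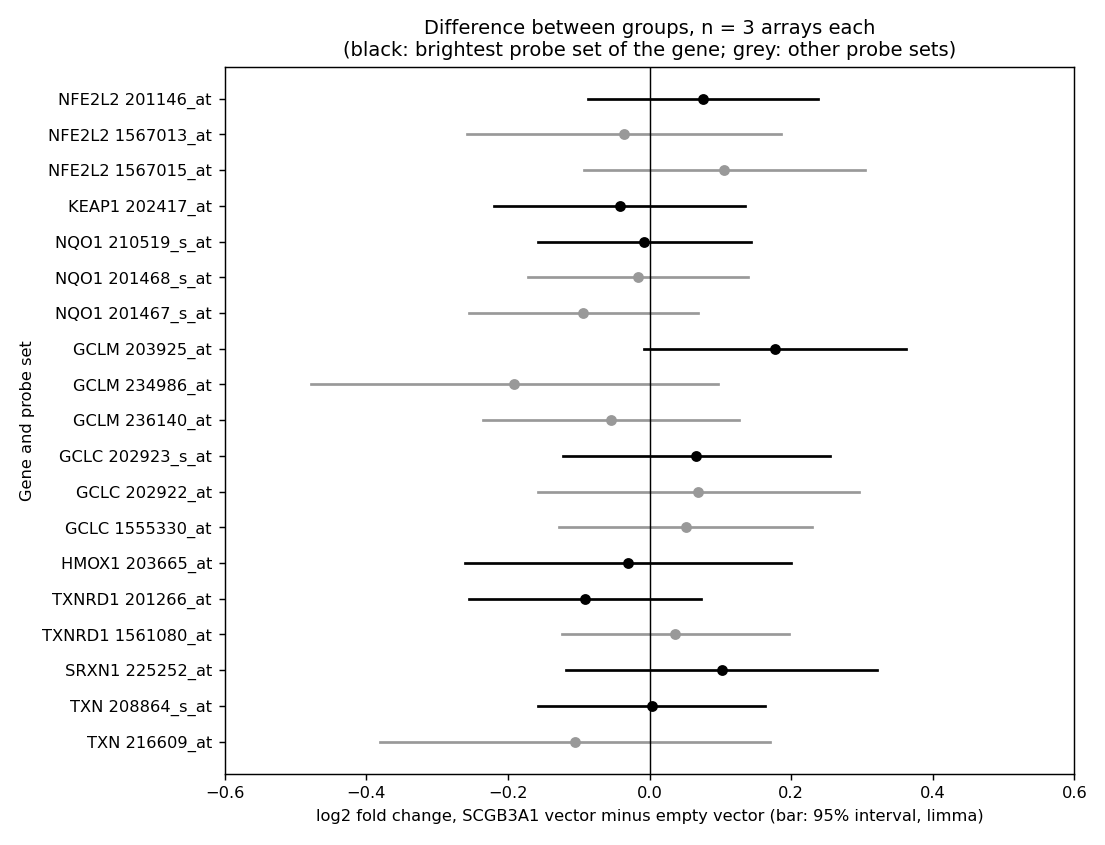
Log2 difference between arrays labelled SCGB3A1 and empty arrays (horizontal axis; points are estimates and bars 95% intervals from limma, n = 3 arrays a group) for the 19 probe sets (vertical axis), black for the brightest probe set of a gene and grey for the others. Every interval includes 0. The estimates of GCLM 203925_at (0.18) and 234986_at (-0.19) have opposite signs, and their intervals overlap.

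In the thioredoxin system, TXNRD1, which reduces thioredoxin with electrons from NADPH, read 11.79, 11.64 and 11.75 in empty and 11.66, 11.68 and 11.56 in labelled arrays (201266_at). Empty replicates 1 and 3 were the highest arrays, and empty replicate 2 lay among the labelled ones. The difference was -0.09 ± 0.08 (SE; 95% interval -0.25 to 0.07; limma, adjusted p = 0.89). Its other probe set, 1561080_at, read 5.88 to 6.02 on all arrays, near the bottom of the table's range of 5.66 to 14.7.

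SRXN1, sulfiredoxin, which restores overoxidised peroxiredoxins (chr20:646615-653200), read 9.79, 9.52 and 9.82 in empty and 9.96, 9.83 and 9.65 in labelled arrays. Empty replicate 2 and SCGB3A1 replicate 3 were the lowest, and the groups overlapped. The difference was 0.10 ± 0.10 (SE; 95% interval -0.12 to 0.32; limma, adjusted p = 0.90), and 0.0052 without empty replicate 2.

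TXN, thioredoxin itself (chr9:110243810-110256507), read 12.57, 12.68 and 12.74 in empty and 12.64, 12.67 and 12.70 in labelled arrays with 208864_s_at. The labelled arrays lay inside the range of the empty ones, and the fold was 1.00 with a 95% interval of 0.897 to 1.12. The second TXN probe set, 216609_at, was the widest of all members in the empty group, at 9.63, 10.23 and 9.86, against 9.82, 9.69 and 9.90 in labelled arrays. Its difference was -0.11 ± 0.13 (SE).

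Arrays differed more than groups did for part of the members, a pattern noticed after the values were seen and given here as a description. Empty replicate 2 and SCGB3A1 replicate 3, which belong to opposite groups, were the 2 lowest arrays for 7 of 19 probe sets (36.8%), in 5 genes. These were all 3 probe sets of GCLC, which read the same gene and include the dim 1555330_at, the main one of TXNRD1, NQO1 201467_s_at, HMOX1 and SRXN1. Over all probe sets the same arrays were the 2 lowest in 11.0%, and over the 80 other pathway genes described below, with 1 probe set each, in 13 (16.2%). They were the 2 highest for 4 probe sets, NFE2L2 1567013_at, GCLM 234986_at and 236140_at, and TXN 216609_at, against 9.68% of all. Over the 6 arrays, the Pearson r between GCLC and SRXN1 was 0.96, between HMOX1 and SRXN1 0.86 and between HMOX1 and GCLC 0.84, while KEAP1 and NQO1 gave 0.87. These values share their arrays and the normalization of each array, and rest on 6 points.

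One of the RNA quality controls set these arrays apart. The 3′ minus 5′ difference of the ACTB control probe sets was 0.08 in empty replicate 2 and 0.03 in SCGB3A1 replicate 3, and ran from -0.08 to -0.02 on the other arrays. That of GAPDH was -0.16 and -0.13, within the -0.16 to -0.06 of the other arrays. Between groups, each differed by less than the spread between arrays (exact two-sided permutation p = 0.5 for both). With 3 arrays a group this test cannot give a p below 0.1, so it cannot show that RNA quality was alike. The part of RNA quality in the member values was not tested. With both arrays left out, an alternative chosen after seeing the data, 0 of 19 probe sets passed adjusted p 0.05, and NFE2L2 1567015_at and GCLM 234986_at passed an unadjusted p of 0.05 in opposite directions, where 9.88% of all probe sets passed it in the same fit.

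**Figure D3:**
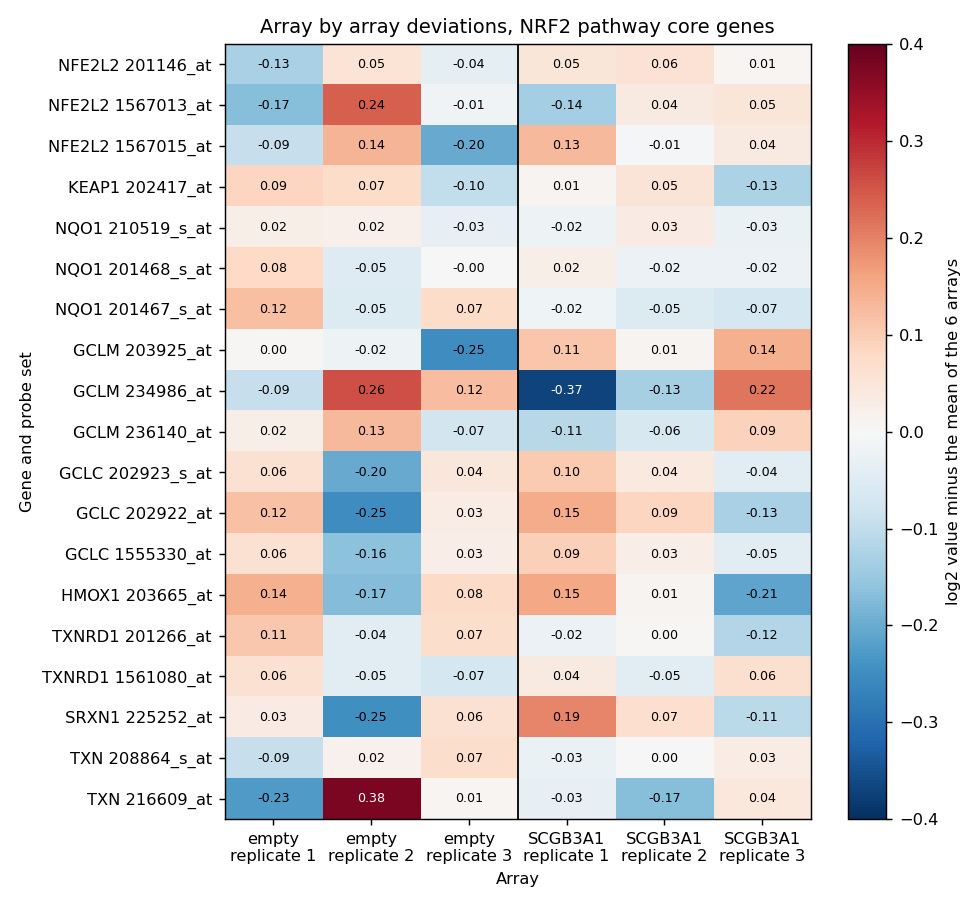
Each cell gives the log2 value of a member probe set (rows) on 1 array (columns) minus its mean over the 6 arrays, with blue below and red above the mean and the empty arrays left of the line. Blue cells in the columns of empty replicate 2 and SCGB3A1 replicate 3 mark GCLC, HMOX1, TXNRD1 201266_at and SRXN1, and red cells mark NFE2L2 1567013_at, GCLM 234986_at and TXN 216609_at.

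The rest of the pathway was read from 7 lists of 87 further genes, of which 80 had a probe set of their own. With the brightest probe set of each gene, 1 gene passed adjusted p 0.05 higher in the labelled arrays and 0 lower. An unadjusted p of 0.05 was passed by 5 higher (6.25%) and 2 lower (2.50%), where 3.09% of all probe sets were higher and 3.10% lower. Of the 5, 3 were aldo-keto reductases (AKR1B10, AKR1C2 and AKR1C3). The probe sets of AKR1C2 and AKR1C3 may read one another, so these need not be separate calls. The differences were positive for 46 and negative for 34, with a median of 0.03, and the groups did not overlap for 18 of 80 (22.5%, against 11.2% of all probe sets). These shares are not like for like, because all probe sets include dim ones and several per gene. In a fit on the brightest probe set of every gene, 6.72% passed an unadjusted p of 0.05, beside 6.20% over all probe sets. The share without overlap was not computed for that set. The lists were chosen with earlier results of these data known, so an excess in them is no test.

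The gene that passed was AKR1B10, an aldo-keto reductase that reduces reactive aldehydes and retinal (chr7:134527567-134541412). It read 8.80, 8.71 and 8.79 in empty and 9.41, 9.22 and 9.38 in labelled arrays, with a clear gap between the groups. It rose 1.48-fold (0.57 ± 0.08 SE; limma, adjusted p = 0.047), the one member of any NRF2 list to pass. The call was lost without any one of the arrays, with adjusted p between 0.11 and 0.36, while the difference stayed between 0.53 and 0.62. AKR1B10 has a near-identical neighbour, and its only probe set carries the suffix for probes that match more than 1 transcript, so its identity is uncertain.

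The other 17 measured genes of its list, the aldehyde, quinone and xenobiotic enzymes, had 12 positive and 5 negative differences, with a median of 0.08. AKR1C2 and AKR1C3, which reduce ketosteroids, differed by 0.19 and 0.17 (limma, adjusted p = 0.78 and 0.79). The other AKR1C2 probe sets gave 0.23 (211653_x_at) and 0.10 (244266_at), neither past adjusted p 0.05. AKR1C1 differed by 0.13 by its main probe set, and its other 4 probe sets gave 0.23, 0.21, -0.01 and -0.10, none past adjusted p 0.05. These sequences are so close that the probe sets may read one another. In the same comparison NQO1, the quinone reductase among the core genes, stood at -0.01.

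Glutathione genes other than the ligase (19 measured) had 11 positive and 8 negative differences. ABCC1, which exports glutathione conjugates, differed by 0.19 (limma, adjusted p = 0.78), but its other probe set gave -0.08. GSR, glutathione reductase, differed by 0.20 by 205770_at and by -0.30 by 225609_at, and in the second empty replicate 2 was the highest array at 9.68. ABCC2, a transporter of the same family, differed by 0.11.

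Among 10 further thioredoxin and peroxiredoxin genes, 6 were positive. SESN1, a sestrin, differed by 0.21 (limma, adjusted p = 0.74), PRDX4, a peroxiredoxin of the endoplasmic reticulum, by -0.13 and TXNRD2, the mitochondrial reductase, by 0.16. NADPH supply, which feeds both systems, gave 5 positive and 2 negative differences. IDH1 differed by -0.16, IDH2 by 0.17 and PGD, of the pentose phosphate pathway, by 0.15, and the groups did not overlap for IDH1 and PGD.

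Haem and iron genes spanned the narrowest range of the lists, from -0.04 to 0.05 over 9 genes. BLVRA and BLVRB, the biliverdin reductases that follow HMOX1, differed by 0.05 and 0.03, and ALAS1, which starts haem synthesis, by 0.03. Superoxide and peroxide enzymes gave -0.13 for SOD2, 0.11 for CAT and -0.02 for SOD1. None of these passed.

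The partners of NRF2 (13 measured) had 6 positive and 7 negative differences. MAFF, a small MAF protein, differed by -0.17 by 36711_at (limma, adjusted p = 0.78) and by 0.22 by 205193_at. BACH2, of a family that competes for the same element, differed by -0.12, and NFE2, a relative of NRF2, by 0.11. MAFK had no probe set of its own.

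ATF4, another stress factor, shares with NRF2 such targets as SLC7A11, the cystine importer. Of 12 genes in its list, 3 of which also stand in the lists above, 0 passed adjusted p 0.05, beside 0.0183% of all probe sets. An unadjusted p of 0.05 was passed by 3, all higher, where 3.09% of all probe sets passed it higher. The groups did not overlap for 2 of the 12, PSAT1 and DDIT3, and for 11.2% of all probe sets. Of the differences, 10 were positive, with a median of 0.05. This list too was chosen with earlier results of these data known. PSAT1, of serine synthesis, read 9.54, 9.66 and 9.53 in empty and 9.83, 9.84 and 9.84 in labelled arrays, and the groups did not overlap (0.26 ± 0.07 SE; limma, adjusted p = 0.70). Its other probe set differed by 0.32. PHGDH, the enzyme at the start of the same route, differed by 0.23 and DDIT3, a stress transcription factor, by 0.16. SLC7A11 stood at -0.05.

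**Figure D4:**
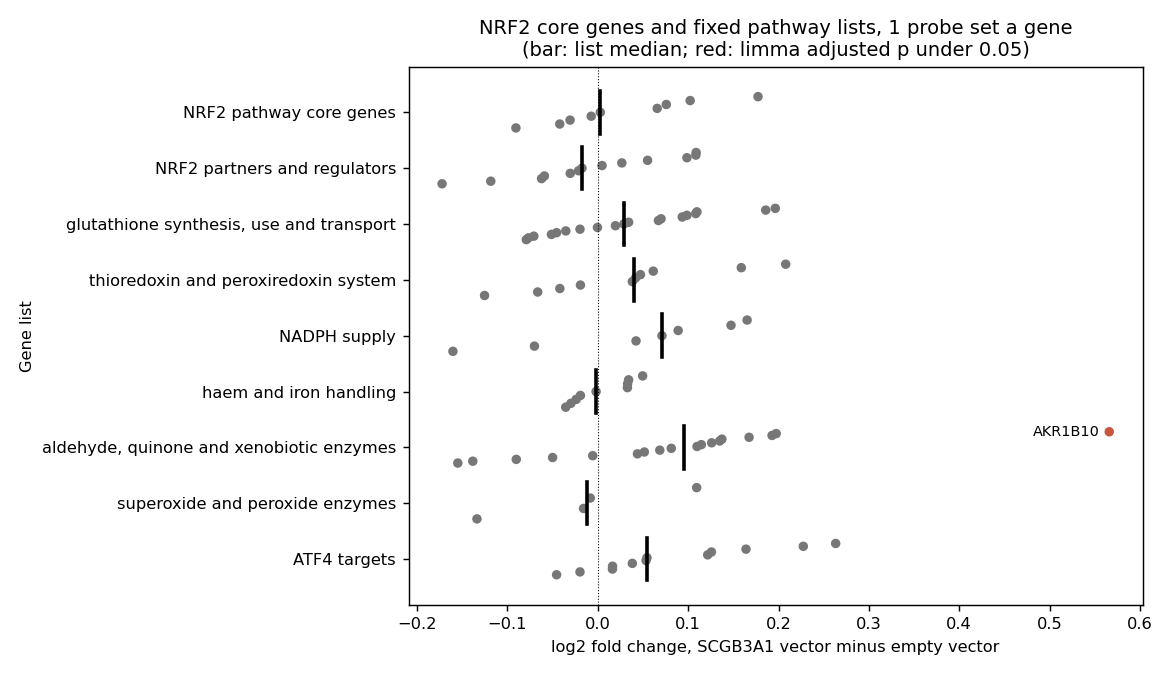
Log2 difference between arrays labelled SCGB3A1 and empty arrays (horizontal axis) for 1 probe set a gene, grouped by list (vertical axis), with a bar at each list's median and red for a gene past adjusted p 0.05. AKR1B10, at 0.57, is the red point, and the 9 core genes lie between -0.09 and 0.18 around a median of 0.00.

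The probe sets whose pattern over the 6 arrays was most like that of NQO1 were those of SHOX2 (Pearson r = 0.993), SMIM27 (0.989) and LINC00656 (0.989), among 23451 probe sets of 1 gene at or above the median level, of which 63 exceeded 0.9. For HMOX1 they were TSR3 (0.998), STX17 (0.996) and AP2A2 (0.993), with 452 of 23453 above 0.9. Among the other core genes, GCLC 202922_at was above 0.9 with HMOX1 (0.915), and no core probe set was above 0.9 with NQO1. These values describe 6 points on shared arrays.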

How the data were processed

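The 6 arrays were normalised by the authors with robust multiarray average (RMA) in Chipster, which corrects background, equalises the arrays' distributions and summarises the probes of a set, and they were deposited as log2 values. The sorted values of any array lay within 0.0256 of the average array, so a change in total RNA per cell is not visible, and RMA makes fold changes of weak genes too small. Of 54675 probe sets, 62 manufacturer controls were set aside and 54613 were tested. Names came from GEO's platform annotation, updated against RefSeq (GRCh38.p14): 0 symbols changed and 54 were not held. Of the tested probe sets, 41091 had 1 symbol, 1801 several and 11721 none. Groups were compared with limma 3.58.1 in R 4.3.3 (lmFit and eBayes, two-sided) on all probe sets, with Benjamini-Hochberg adjustment, and the fit was tested on simulated data. For arrays, their number limits the precision. The members and lists were chosen with earlier results of these data known. Genes named were the 9 members with every probe set, SCGB3A1, in each list the 3 with the smallest p and any past adjusted p 0.05, and the 3 most like NQO1 and HMOX1. Other probe sets of listed genes, AKR1C1 and SLC7A11 were added after values were seen. Alternatives changed the scaling, the variance model, array weights, a replicate block, probe set filters and the arrays included.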

Additional observations from a re-analysis of the deposited data

How the results depend on the processing

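Across 16 alternatives, one of them (without empty replicate 2 and SCGB3A1 replicate 3) chosen after seeing the data, 0 of 19 core probe sets passed adjusted p 0.05. In 143 comparisons of the 9 genes the lowest adjusted p was 0.5654, 126 kept the direction and 17 turned it. The count at an unadjusted p of 0.05 became 1 with an intensity trend and robust variances, 1 with array weights, 0 to 2 with 1 array left out and 2 without both arrays, where 4.31% to 9.88% of all probe sets passed in these fits. GCLM 203925_at was the 1 with the trend and with weights, and also passed without empty replicate 1, empty replicate 2 or SCGB3A1 replicate 2. GCLM 234986_at passed without SCGB3A1 replicate 3 (-0.35) and NFE2L2 1567015_at without empty replicate 2 (0.20). With 1 array left out, the median over core probe sets ran from -0.0082 to 0.0189 (the highest without empty replicate 1), GCLC from -0.0188 (without empty replicate 2) to 0.1119, HMOX1 from -0.1245 to 0.0665, KEAP1 from -0.1014 to 0.0103, NQO1 from -0.0263 to 0.0039 and TXN from -0.0428 to 0.0389, and each of these 5 genes turned sign at least once. The other 4 kept their sign but moved too: NFE2L2 ran from 0.0295 (without empty replicate 1) to 0.1217, SRXN1 from 0.0052 (without empty replicate 2) to 0.1819, TXNRD1 from -0.1352 to -0.0553 and GCLM from 0.0969 to 0.2234. Without both arrays, KEAP1 gave 0.0368, NQO1 0.0115 and TXN -0.0022. Array weights gave 0.0025 for NQO1, the mean of all probe sets per gene gave -0.0225 for GCLM and -0.0513 for TXN, and leaving out cross-hybridizing probe sets gave -0.1053 for TXN and no value for NQO1, whose probe sets are all of that kind. The causes of these turns were not tested. The count of pathway genes past adjusted p 0.05 fell from 1 to 0 with each array left out, without both arrays, without dim probe sets (AKR1B10 adjusted p = 0.061) and without cross-hybridizing probe sets, which removes AKR1B10. Deviations of same-numbered arrays correlated at 0.145, -0.144 and -0.087. These values gave no sign that the replicate numbers pair the samples, but they cannot exclude it. With a replicate block the count of pathway genes was 0 (AKR1B10 adjusted p = 0.13), and no core probe set changed its side of the threshold. The number of arrays limits the precision.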
